A study of Rattus norvegicus with 35 samples.

Results

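The untreated weanling mammary gland of the rat was described from 5 microarrays, those titled as negative control replicates 1 to 5, out of 35 arrays in the series. Each array measured total RNA of the abdominal left mammary gland of a female Sprague-Dawley offspring at postnatal day 21. The dam of each had the treatment label "negative control", and the vehicle and diet behind that label are not given in the sources used here. The other 30 arrays came from 6 groups whose dams received bisphenol A, alone or with genistein or indole-3-carbinol in the chow, and they were used only to compare array quality. The whole gland was extracted, so that fat pad, ducts, vessels, nerves, lymphoid tissue and any attached muscle were measured together. No source used here says whether the 5 offspring came from separate litters.

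At weaning the rat mammary gland is a small ductal tree inside a large white fat pad. The ducts have an inner luminal layer, which later makes milk, and an outer basal or myoepithelial layer, which contracts. The fat pad holds adipocytes, collagen-producing fibroblasts, blood vessels and resident macrophages and mast cells. The abdominal pad contains a lymph node and lies against skin and body-wall muscle. The questions put to these 5 arrays were which of these compartments gave the brightest signals and which genes differed most from array to array. With 1 group there is no contrast, so values are described with their spread and no difference between groups is tested, and in whole-gland RNA fewer cells of a type and less RNA per cell cannot be told apart.

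Each gene was read by 60-base probes, and the 5 probes printed here stand for compartments on which the description turns. They are adiponectin (fat hormone), collagen III (fibroblast matrix), complement C1q chain A (macrophage), muscle creatine kinase and the fast myosin heavy chain Myh4. The array annotation, on the rn3 assembly, places the Adipoq probe at chr11:79966064-79966123, the Col3a1 probe at chr9:44318879-44318938, the C1qa probe at chr5:155672617-155672676, the Ckm probe at chr1:78850529-78850588 and the Myh4 probe at chr10:53967556-53967615. The Adipoq and C1qa positions are listed in descending order.
Adipoq: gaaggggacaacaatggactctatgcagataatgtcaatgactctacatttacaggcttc
Col3a1: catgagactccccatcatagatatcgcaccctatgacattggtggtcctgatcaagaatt
C1qa: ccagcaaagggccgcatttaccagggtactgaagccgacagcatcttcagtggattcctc
Ckm: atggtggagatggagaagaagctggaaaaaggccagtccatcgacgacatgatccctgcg
Myh4: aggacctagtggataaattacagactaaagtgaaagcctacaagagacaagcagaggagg

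A level is the log2 processed signal of a probe minus the 75th percentile of log2 signal on its array, so that 0 is the 75th percentile of all probe spots. The brightest probe stood for a gene, and its values are listed for controls 1, 2, 3, 4 and 5 in that order. A gene counted as detected when it was well above background on at least 3 arrays, which held for 15865 of 35487 genes on 5 arrays, 9287 of them named. A percentile is the place of a gene's mean level among detected genes. Percentiles rank brightness, which also depends on the probe sequence, and they give no order of transcript numbers. A saturated probe gives only a lower bound, and a gene detected on 3 or 4 arrays has only an upper bound on the others.

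The array of control 2 stood apart. It had 93.5% of probes well above background, against 41.9, 41.9, 48.5 and 46.7% on controls 1, 3, 4 and 5. Its log2 distance between the 25th and the 99th percentile of signal was 6.88, against 10.4 to 11.4 on the other 4, and its dimmest spike-in probe read 107, against 3.88 to 4.71. Each control array lay on a slide of its own, and the 3 arrays of other groups on the slide of control 2 had 94.8 to 96.5% of probes well above background. On 6 arrays of other groups on slides 4 and 5 this share was 65.5 to 72.6%, and on the remaining 21, on 7 further slides, it was 32.5 to 50.6%. The order of genes on control 2 correlated with that on the other controls at a Spearman rho of 0.744 to 0.760 across genes, against 0.933 to 0.965 for the 6 pairs without it. The mean signal of negative control spots was not raised on control 2, at 51.8, against 67.9, 42.8, 68.0 and 57.95 on controls 1, 3, 4 and 5. Control 1 had weak spike-ins without the high share of probes above background. Its brightest spike-in probe read 4485, against 59665 to 63393 on controls 3, 4 and 5. Results are therefore given over 5 arrays and over the 4 without control 2, and animal and slide cannot be told apart.

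**Figure D1:**
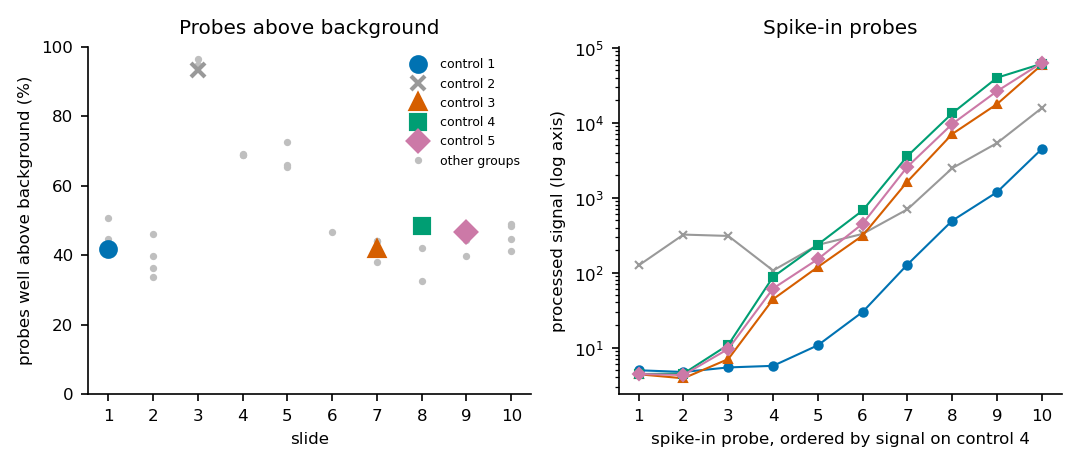
Left, the share of probes well above background (%) by slide for the 5 control arrays and, in grey, the 30 arrays of other groups. Right, the processed signal (log axis) of 10 spike-in probes on each control array: control 2 flattens near 107 to 329 at the dim end and control 1 lies below controls 3, 4 and 5.

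Ribosomal protein, collagen, adipocyte and haemoglobin genes were among the brightest named signals of the untreated gland. The brightest named probe of all, annotated as Rab15, a vesicle transport protein, averaged 9.20 over 5 arrays, while the other probe of that gene averaged -3.53 over 4, so the level of Rab15 itself is uncertain. Among the 100 brightest genes 66 had a name, and 37 of these were named as ribosomal proteins, their ubiquitin fusions or Tpt1. Over 4 arrays this count was 38, and 98 of the 100 genes were shared. The brightest of the fixed ribosomal list included Rps6 with levels of 9.64, 7.48, 9.57, 8.86 and 9.27 and Rplp1 with 9.31, 7.28, 9.64, 8.77 and 9.13. Rps6 was saturated on 4 arrays and Rplp1 on 5, so these levels are lower bounds and their order between arrays is not read. Rps16, a protein of the small ribosomal subunit, was saturated on no array and read 9.28, 7.16, 9.24, 9.27 and 9.32. For Rps16 the 4 arrays without control 2 spanned 0.08, and control 2 was lower. Of the 100 brightest genes 57 were saturated on at least 1 array, so the order at the top is partly one of bounds.

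Outside the ribosome, bright named genes included those of the stroma, fat and blood. Col1a1, the main chain of fibrillar collagen I, had levels of 9.86, 7.51, 9.89, 9.14 and 9.48 and was saturated on 2 arrays. Hbb-b1, a beta-globin of red cells, was saturated on all 5 arrays, as was Retn, the adipocyte hormone resistin, at 9.21, 7.25, 9.48, 8.76 and 9.04. G0s2, which inhibits adipose triglyceride lipase, read 8.63, 9.32, 9.01 and 9.02 on controls 1, 3, 4 and 5, with the spot of control 2 left out as an outlier. Cox6a1, a subunit of cytochrome c oxidase, read 8.21, 9.01, 8.99 and 8.77 on the same 4 arrays. Of the 20 brightest genes 10 carried no gene name and cannot be placed in a compartment here.

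White fat stood high as a whole. All 19 of its listed genes on the array were above background on every array, 4 were among the 100 brightest, and their median percentile was 90.5 over 5 arrays and 90.1 over 4. Adipoq, the adiponectin gene, read 8.43, 6.39, 8.17, 8.37 and 8.60. Fabp4, the fatty acid carrier of adipocytes, read 7.98, 6.69, 8.54, 8.25 and 8.43. Cfd (adipsin) was saturated on all 5 arrays. Control 2 was the lowest array for 18 of the 19 white fat genes, where 10407 of all 15865 detected genes were lowest on control 2. The other 4 arrays were close together.

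The enzymes and regulators of the adipocyte were also well above the middle of the range. Lipoprotein lipase (Lpl), which releases fatty acids from circulating lipoproteins, read 6.57, 4.45, 6.49, 6.97 and 6.50. The glucose transporter Slc2a4 averaged 4.49 ± 0.23 and the water and glycerol channel Aqp7 5.20 ± 0.18 (SD, n = 4). Pparg, the transcription factor that drives adipocyte differentiation, read 2.31, 0.93, 3.07, 2.89 and 2.79. Lep (leptin) was among the dimmest of the list at -0.31, -0.97, -0.79, -0.48 and -0.48. The white fat gene with the widest spread over 4 arrays was Pck1, a glyceroneogenic enzyme, at 5.05 on control 1 and 3.46 to 4.22 on controls 3, 4 and 5. No white fat gene had an SD of 1 or more over the 4 arrays, where the median SD of the list was 0.25, against 0.29 for all detected genes.

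Fatty acid and triglyceride synthesis genes were as bright as the adipocyte markers but spread more. Of 21 listed genes 20 were detected, with a median percentile of 93.2 over 5 arrays and 92.3 over 4, and 10 were among the 1000 brightest. Fasn, fatty acid synthase, read 5.96, 5.33, 8.10, 8.04 and 7.37. Scd, the stearoyl-CoA desaturase, read 4.79, 4.77, 7.72, 7.0 and 6.05, and Acaca, acetyl-CoA carboxylase, 4.46, 3.77, 6.15, 6.24 and 6.13. For all 3 genes controls 1 and 2 were lowest and control 3 or 4 highest. Thrsp, a lipogenic regulator, and Dgat1 and Dgat2, which attach the last fatty acid of triglyceride, were bright with smaller spreads, at 7.17 ± 0.50, 5.83 ± 0.16 and 7.10 ± 0.51 (SD, n = 4).

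Thermogenic markers were mixed. Of 12 brown fat genes on the array 9 were detected, with a median percentile of 31.02 over 5 arrays (33.1 for 8 genes over 4). Cidea, a lipid droplet protein abundant in brown and beige fat, read 2.95, 2.48, 3.18, 3.29 and 3.17, close on all 5 arrays. Ucp1, the uncoupling protein that defines thermogenic fat, read -3.90, 0.43, -0.70, -2.62 and 0.47 and was well above background on 4 of 5 arrays. The Ucp1 readings thus spanned more than 4 log2 units while those of Cidea spanned less than 1. With 1 Ucp1 value not well above background, and so only an upper bound, the size of its spread is uncertain. Cox8b, a cytochrome oxidase subunit of brown fat and of striated muscle, was highest on control 5 at 5.91, against 3.95, 3.37, 4.49 and 3.47 on controls 1 to 4. Elovl3, Ppargc1a and Zic1 were not well above background on controls 1, 3, 4 and 5.

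Fibroblast and matrix genes formed a bright and even compartment, with a median SD of 0.23 over the 4 arrays (0.18 for the ribosomal list). All 29 listed genes on the array were detected, 5 were among the 100 brightest and 15 among the 1000 brightest, with a median percentile of 95.25 over 5 arrays and 95.03 over 4. Col3a1 was saturated on every array, and so were Sparc, a matrix-binding glycoprotein, and Col1a2. Decorin (Dcn), a collagen-binding proteoglycan, read 6.87, 4.67, 6.72, 7.09 and 6.82. Col6a1, a chain of beaded-filament collagen VI, read 5.78, 5.83, 5.81 and 5.82 on controls 1, 3, 4 and 5, an SD of 0.02. Pdgfra, the growth factor receptor of fibroblasts and adipocyte precursors, averaged 4.48 ± 0.11 (SD, n = 4). Igfbp5, a secreted binding protein of insulin-like growth factors, had the widest spread among the 28 matrix genes detected over 4 arrays, with control 1 highest at 4.32 and the other 3 between 2.95 and 3.42.

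Vessel and nerve genes were dimmer and uneven within their lists. Smooth muscle and pericyte genes had a median percentile of 73.8 over 5 arrays, with Notch3, a receptor of mural cells, at 6.10 ± 0.91 and Mcam at 4.96 ± 0.09 (SD, n = 4). Endothelial genes stood at 34.7, although Kdr, the receptor of vascular endothelial growth factor, averaged 4.86 ± 0.25 and Egfl7, a secreted endothelial protein, 3.82 ± 0.19 (SD, n = 4). The endothelial surface proteins Pecam1, Tie1 and Flt1 were near the bottom, at -1.83 ± 0.62, -2.23 ± 0.61 and -1.79 ± 0.42 (SD, n = 4). Schwann cell genes included Pmp22, a myelin protein that fibroblasts also make, at 5.17 ± 0.29 and the transcription factor Sox10 at 0.66 ± 0.37 (SD, n = 4). Of 12 neuronal genes 3 were detected, among them Npy (neuropeptide Y) at -0.68, -0.73, -0.78, -0.57 and -0.19.

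The epithelium was present at low brightness. Of 27 luminal genes 17 were detected, with a median percentile of 37.0 over 5 arrays and 24.8 over 4. Epcam, the epithelial adhesion molecule, read 2.21, 0.29, 0.43, 0.95 and 0.53, and Cldn3, a tight junction protein, 2.93, 0.71, 1.48, 1.60 and 2.62. Cdh1, which encodes E-cadherin, read 1.33, -1.15, 0.40, 0.57 and 0.87. Control 1 was highest for all 3 of these genes. The luminal keratin Krt8 read -0.48, 0.41, -1.06, -0.89 and -0.90. The probe named Krt18 was bright at 5.02, 2.65, 5.16, 4.90 and 4.89, but the array annotation places it on chromosome 2, whereas RefSeq places Krt18 on chromosome 7, so its level is uncertain as a measure of Krt18. Elf5, Foxa1, Elf3, Muc1 and Kit were well above background on 1 of 5 arrays, control 2, and have no level on the other 4.

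Basal epithelial genes stood in the middle of the range, with 9 of 15 detected and a median percentile of 56.99 over 5 arrays and 53.6 over 4. The fixed basal list shares Acta2, Cnn1 and Myh11 with the smooth muscle and pericyte list, so its median is not one of epithelium alone. Krt5 read 0.21, -1.67, -0.52, -1.01 and -0.90 and Krt14 0.76, -0.55, -0.13, 0.39 and -0.36, both basal keratins that skin also makes. Egfr and Itgb4, which other cells of the pad also express, were brighter, at 2.01 ± 0.24 and 2.98 ± 0.39 (SD, n = 4). Lgr5 and Oxtr, a stem cell marker and the oxytocin receptor, were detected near the bottom of the range, at percentiles of 2.60 and 16.95 over 4 arrays. Of 9 skin keratinocyte genes on the array 2 were detected, Krt1 at -1.05, 1.40, -1.64, -0.70 and -1.11 and Sprr1a on 3 arrays.

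Some milk protein genes were already well above background in these weanlings. Csn1s1, an alpha-casein, read 2.10, -0.15, 1.63, 1.85 and 2.30, and Lalba, the alpha-lactalbumin that directs lactose synthesis, 2.44, -0.19, 2.16, 1.66 and 1.87. Beta-casein (Csn2) was dimmer at -0.37, -1.83, -0.75, -1.61 and -0.89, and Csn3 (kappa-casein) read -0.24, -1.31, -1.48, -2.11 and -1.64. Control 2 was lowest for Csn1s1, Lalba and Csn2, and among the other 4 control 1 or control 5 was highest for all 4 genes. Wap (whey acidic protein) and Csn1s2a were well above background on 0 of 5 arrays, and Csn1s2b, Btn1a1 and Ltf on 1, so they have no level here. Of 15 listed genes on the array 6 were detected, among them Glycam1, which lymph node vessels also make and which is described with the lymph node genes below.

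The classical ovarian hormone receptors were not detected. Esr1 and Pgr, the oestrogen and progesterone receptors, were well above background on 1 of 5 arrays, control 2, as were Esr2, Gper1, Vdr and Ahr. Of 18 receptor genes 10 were detected, with a median percentile of 32.4 over 5 arrays and 25.0 over 4. The growth hormone receptor Ghr was the brightest, at 3.75, 1.58, 3.26, 3.49 and 3.25, followed by the thyroid hormone receptor Thrb at 3.26, 0.53, 2.46, 2.92 and 2.70. The glucocorticoid receptor Nr3c1 read 1.27, -0.48, 1.67, 1.64 and 1.90. Prlr, the prolactin receptor, was dim at -1.27, -0.52, -2.52, -2.20 and -2.19. Control 1 was the highest of the 4 arrays for 7 of the 10 detected receptors, where 25.3% of detected genes peaked on control 1.

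Growth factor genes of the insulin-like axis stood far higher than these receptors. Of 14 genes on the array 11 were detected, with a median percentile of 92.0 over 5 arrays and 91.5 over 4. Igf1, the growth factor that acts downstream of growth hormone in the mammary stroma, read 7.62, 5.31, 7.62, 7.87 and 7.90. Igf2 read 5.89, 4.15, 5.63, 5.88 and 6.42 and the binding protein Igfbp3 7.24, 4.21, 6.34, 7.25 and 6.64. All 3 were lowest on control 2. Igf1r, the receptor of Igf1, was well above background on 1 of 5 arrays.

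Blood and resident immune cells were visible in several lists. Of 17 red cell genes on the array 10 were detected (9 over 4 arrays), and globins led them. Hba-a3, an alpha-globin, and Hbb-b1 were saturated on every array, and Hbb read 5.84, 3.75, 6.30, 5.93 and 6.55. Alas2, the first enzyme of haem synthesis in red cell precursors, read 2.61, 1.33, 3.12, 2.50 and 3.28, and Ahsp, an alpha-globin chaperone, 2.47, 1.96, 3.05, 2.83 and 3.42. Both were highest on control 5 and lowest on control 2. The median percentile of the list was 64.9 over 5 arrays and 81.1 over 4, where the dim carrier gene Slc25a37 no longer counted as detected.

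Macrophage genes were the brightest of the immune lists. Of 20 on the array 18 were above background on every array, with a median percentile of 84.2 over 5 arrays and 82.7 over 4, and a median SD of 0.26 over 4. The complement gene C1qb read 6.97, 4.82, 6.80, 7.17 and 6.88, and C1qa, whose probe is printed above, 5.26, 3.40, 5.09, 5.23 and 5.32. Mrc1, a mannose receptor of tissue macrophages, averaged 3.41 ± 0.32, Folr2, a folate receptor, 3.61 ± 0.09 and the lysosomal protein Cd68 2.77 ± 0.13 (SD, n = 4). Control 2 was lowest for all 5 genes and the other 4 arrays were close. Of the 18 genes 9 were highest on control 4, where 24.4% of detected genes peaked.

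Mast cell genes were even as well, with 9 of 13 detected and a median percentile of 72 over 5 arrays and 70.5 over 4. Cma1, mast cell chymase, read 6.26, 4.10, 5.89, 6.37 and 6.01, and Mcpt1, a further mast cell protease, 3.91, 1.58, 3.80, 4.36 and 3.57. The carboxypeptidase Cpa3 averaged 2.43 ± 0.36 (SD, n = 4). Of neutrophil genes 5 of 13 were detected, where 15865 of all 35487 genes were detected. S100a8 read -0.95, -0.72, -1.78, 0.46 and -1.29, and Lcn2, which epithelium also makes, averaged 1.97 ± 0.38 (SD, n = 4). T cell genes were detected for 6 of 18 and B cell genes for 5 of 11, fewer over 4 arrays (5 and 3). These counts are small and are to be read beside the same share over all genes.

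**Figure D2:**
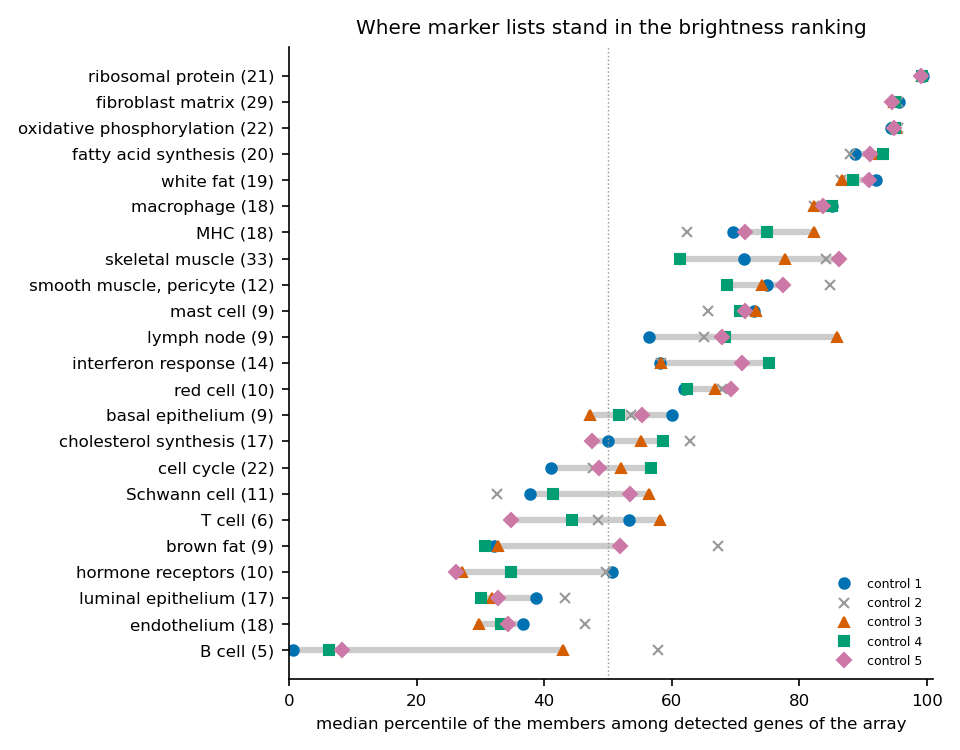
Median percentile of the detected members of 23 lists (number in brackets) among the detected genes of each array, with grey bars from the lowest to the highest of the 4 arrays without control 2. Ribosomal, matrix, oxidative phosphorylation, fatty acid synthesis and white fat lists sit at 86.5 or higher on every array. Skeletal muscle ranges from 61.2 on control 4 to 86.2 on control 5.

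How much the arrays differed depended on control 2. Over 5 arrays 2015 of 15865 detected genes (12.7%) had an SD of 1 or more, and the median SD was 0.72. Over the 4 arrays without control 2, 360 of 14522 (2.48%) did, and the median SD was 0.29. Of the 200 genes of highest SD over 5 arrays 140 were highest on control 2, and only 41 of these 200 were also among the 200 of highest SD over 4 arrays. The named genes that led the 5-array order were mostly dim: Or2f2, an olfactory receptor, read -4.28, 2.06, -1.88, -5.29 and -0.40, and Nkx2-3, a homeobox gene, -2.01, 1.05, -4.42, -4.86 and -2.07. Tfeb, a regulator of lysosomal genes, read 3.57 on control 2 and between -1.24 and -0.05 on the other 4. The order over 5 arrays thus describes mainly control 2, and the variable genes below are those of the 4 other arrays.

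**Figure D3:**
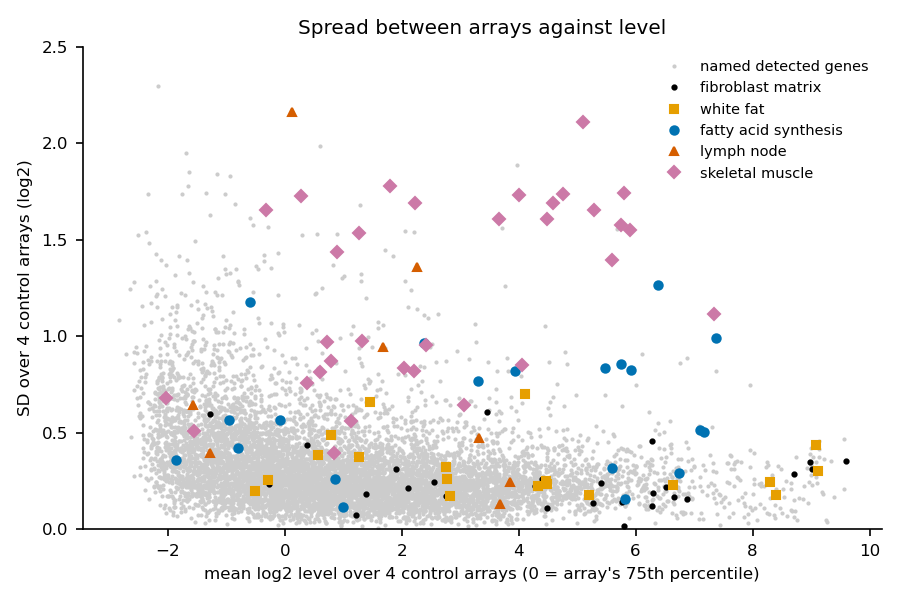
SD over 4 control arrays (log2) against mean log2 level for named detected genes, with 5 lists marked. Of 32 skeletal muscle genes 18 lie at an SD of 1 or more, Glycam1 of the lymph node list lies at 2.16, and white fat and matrix genes at 0.70 or below.

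Of the fixed lists, skeletal muscle, the longest with 40 genes, had the most members among the most variable genes of the 4 arrays. Of the 200 genes of highest SD over these arrays 105 were named, and 96 were above background on every array. Of 35 muscle genes on the array 32 were detected over 4 arrays, 18 of them had an SD of 1 or more against the 2.48% of all detected genes, and 17 were among the 200 of highest SD. The median SD of the list was 1.42. Control 5 was highest for 24 of the 32, where 21.2% of detected genes peaked on control 5, and control 4 was lowest for 25, where 17.3% of detected genes were lowest on control 4. Myh4, the fast myosin heavy chain, read 3.19, 4.33, 5.13, 4.03 and 8.03. Ckm, muscle creatine kinase, read 4.85, 5.07, 5.71, 4.37 and 8.29, and Acta1, skeletal actin, 3.74, 3.87, 4.42, 3.17 and 7.0. In all 3 genes control 5 was the highest of the 5 arrays and control 3 the next.

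Other fast-fibre genes were highest on the same array, with control 3 next. Tnni2, fast troponin I, read 6.63, 6.24, 7.19, 6.56 and 8.95 and was the brightest of the list, saturated on 1 array. Actn3, the actinin of fast fibres, read 4.75, 4.85, 5.74, 4.54 and 7.99, Pvalb, the calcium buffer parvalbumin, 2.70, 3.38, 4.21, 2.73 and 6.38, and Atp2a1, the calcium pump of fast fibres, 1.49, 1.79, 2.22, 0.64 and 4.58. The glycolytic muscle enzymes Eno3, Pygm and Pgam2 read 8.05, 2.70 and 6.67 on control 5, against at most 6.03, 0.23 and 4.71 on the other arrays. The myosin-binding protein Mybpc2 and the light chain Myl1 were highest on control 5 as well, at 4.29 and 7.16. Actc1, the cardiac actin that skeletal muscle also makes during development, is outside the fixed list and read 2.60, 3.18, 4.32, 2.48 and 6.51.

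Of the 32 muscle genes 8 did not peak on control 5 among the 4 arrays: Myh7, Tnnt1, Tnni1, Mb, Myl3, Myoz2, Csrp3 and Sln. Several of these belong to slow or oxidative fibres, a grouping made after their values were seen. Myh7, the slow myosin heavy chain, read 2.90, 0.05, 2.53, 1.02 and 2.41, and Tnnt1, slow troponin T, 1.25, -1.41, 1.04, 0.35 and 0.71. Tnni1, slow troponin I, read 1.01, -1.0, 0.96, -0.59 and 0.14, and Mb, the oxygen-binding myoglobin, 3.22, 1.14, 3.54, 2.12 and 3.40. In these 4 genes control 1 or control 3 was highest, control 4 was lowest of the 4 arrays and control 2 was lowest of all 5. Myl3, a slow and cardiac light chain, read 1.69, 2.23, 1.14, -0.37 and 0.74. Myl2, a further slow and cardiac light chain, did peak on control 5, at 0.58, 0.67, 1.36, 0.80 and 1.82, but the array annotation places its probe on chromosome 1 and RefSeq places Myl2 on chromosome 12, so its level is uncertain.

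Myogenic regulators showed the same array apart. Myog (myogenin) read -1.66, -0.83, -0.73, -1.50 and 1.75, and Myod1, which commits cells to the muscle lineage, -1.91, -1.48, -1.06, -2.19 and 0.94. They were the 2 detected of 8 myogenic genes on the array, while Myf5, Pax3 and Mymk were not well above background on controls 1, 3, 4 and 5. The mean of the 32 muscle genes, as a deviation from each gene's 4-array mean, was -0.61, 0.15, -1.01 and 1.47 on controls 1, 3, 4 and 5. On control 5 the list was 1.96 above the mean of the other 3 arrays, and 2.03 above the mean of the other 4 when control 2 was kept. Ttn, a giant sarcomere protein with 9 probes, Myom2, an M-band protein, and Trim54, a muscle ubiquitin ligase, were also highest on control 5 among the 4 arrays, at 3.43, 1.37 and 0.89. Whether control 5 carried more body-wall muscle was not tested.

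Promoters of Acta1, Myh4 and Ckm are printed as examples of the genes that peaked on control 5, chosen after values were seen. They are the 250 bases before the gene start from RefSeq, assembly GRCr8, at chr19:68784195-68784444 on the minus strand for Acta1, chr10:52421898-52422147 on the plus strand for Myh4 and chr1:88189211-88189460 on the plus strand for Ckm. Capitals mark the E-box CAGCTG, which reads the same on both strands and is the form favoured by MyoD and myogenin, a MEF2 site and CArG boxes, which bind serum response factor.
Acta1: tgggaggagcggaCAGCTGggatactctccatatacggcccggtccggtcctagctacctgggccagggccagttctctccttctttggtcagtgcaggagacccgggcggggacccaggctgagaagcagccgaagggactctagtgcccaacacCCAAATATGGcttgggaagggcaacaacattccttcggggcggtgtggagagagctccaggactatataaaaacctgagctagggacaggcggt
Myh4: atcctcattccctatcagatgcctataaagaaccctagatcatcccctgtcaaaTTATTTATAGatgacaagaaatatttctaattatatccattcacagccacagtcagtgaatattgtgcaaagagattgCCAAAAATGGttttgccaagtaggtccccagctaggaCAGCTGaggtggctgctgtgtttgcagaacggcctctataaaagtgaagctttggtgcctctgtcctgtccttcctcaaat
Ckm: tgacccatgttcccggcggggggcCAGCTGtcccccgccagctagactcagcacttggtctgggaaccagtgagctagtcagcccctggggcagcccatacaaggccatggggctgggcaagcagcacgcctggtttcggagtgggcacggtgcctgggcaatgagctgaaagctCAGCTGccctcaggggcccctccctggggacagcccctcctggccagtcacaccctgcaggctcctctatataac
Of the 19 muscle and myogenic genes among the 200 of highest SD 17 had a promoter in the RefSeq table, and CAGCTG was in 7 of them, Acta1, Atp2a1, Cacna1s, Ckm, Myh4, Pgam2 and Pygm. All 27457 promoters of this length held CAGCTG in 11.9%, a MEF2 site in 3.07% and a CArG box in 1.50%. The MEF2 site was in Myh4, Myoz1 and Ttn and the CArG box in Acta1 and Myh4. The promoters of Myog and Actc1, which also peaked on control 5, held none of the searched marks. The searched marks do not overlap in the printed promoters, and a match in letters describes the sequence, not a bound site.

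T cell genes and part of the lymph node and B cell genes peaked on a different array, control 3. Of 8 lymph node genes detected over 4 arrays 4 were highest on control 3, where 29.1% of detected genes peaked, 2 on control 4 and 2 on control 5. Glycam1, made by the high endothelial vessels of lymph nodes and by the lactating gland, read -0.61, -1.30, 3.35, -1.18 and -1.07. Ccl19, a chemokine that draws T cells into lymph nodes, read 0.72, 0.40, 3.66, 3.1 and 1.55, and Ltb, lymphotoxin beta, 0.64, -0.21, 2.93, 1.58 and 1.53. Control 3 was highest for all 3, with control 4 next for Ccl19 and Ltb. Ccl21, also made by lymphatic vessels, read 3.37, 1.36, 3.89, 2.74 and 3.30, highest on control 3 and lowest of the 4 arrays on control 4. The brightest lymph node genes peaked elsewhere: Cxcl13, a chemokine that attracts B cells, read 3.72, 1.66, 3.97, 4.13 and 3.58, and Enpp2, the secreted enzyme autotaxin, which adipocytes also make, 3.63, 2.02, 3.66, 3.58 and 3.87. The mean of the 8 lymph node genes detected over 4 arrays was -0.61, 0.89, -0.02 and -0.25 on controls 1, 3, 4 and 5.

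All 5 T cell genes detected over 4 arrays were highest on control 3 and lowest on control 5, where 29.1% of detected genes were highest on control 3 and 16.8% lowest on control 5. Cd3d, a chain of the T cell receptor complex, read 2.12, 0.39, 3.44, 2.27 and 1.39, and Cd3g 1.34, 1.02, 3.17, 1.50 and 0.69. Among B cell genes Cd79b, a chain of the B cell receptor complex, read -3.68, 0.16, 0.52, -2.31 and -1.18, and Fcer2, the low-affinity IgE receptor of B cells, -4.02, 0.02, 0.20, -1.81 and -1.41. Both were dim, and controls 2 and 3 were the highest arrays. Fcrla, also expressed by B cells, went another way and was highest on control 1 at 1.18, against -0.10 on control 3. Antigen-presenting MHC genes were highest on control 3 for 12 of 18, among them RT1-Bb, a class II chain, at 1.42, 0.46, 3.27, 2.17 and 2.49. How much of the lymph node each extract held was not tested.

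**Figure D4:**
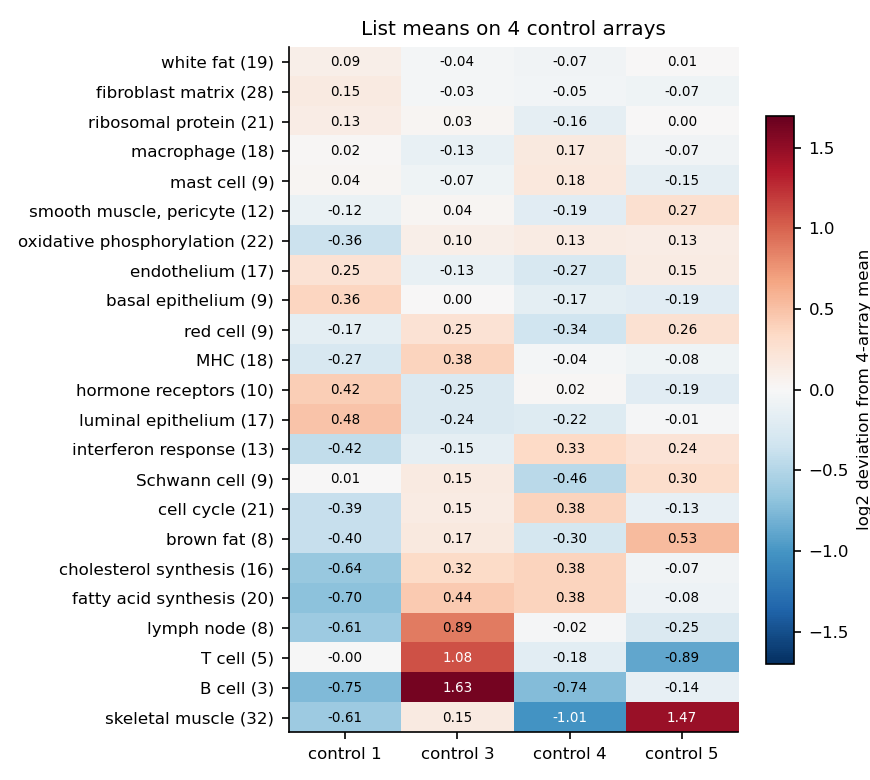
Mean deviation (log2) of the detected members of 23 lists (number in brackets) from each gene's mean over the 4 arrays without control 2, ordered by range. Skeletal muscle is highest on control 5 (1.47), lymphoid lists on control 3 (up to 1.63), and fatty acid synthesis is lowest on control 1 (-0.70). The 1.63 is that of the B cell list, with 3 dim genes detected and 1 of them above background on all 4 arrays.

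Control 1 differed from the other 3 arrays in lipid synthesis and in epithelial genes. Of 20 fatty acid and triglyceride synthesis genes 16 were lowest on control 1 among the 4 arrays, where 40% of detected genes were lowest on control 1, and 9 were highest on control 3. Of 16 cholesterol synthesis genes 14 were lowest on control 1. Insig1, a sterol-regulated brake on lipid synthesis, read 5.73, 4.80, 7.42, 7.53 and 6.40, and Fdps, which makes farnesyl diphosphate, 2.40, 2.75, 4.29, 4.07 and 3.17. Sqle, squalene epoxidase, read -1.41, -0.90, 0.33, 0.36 and -0.01. Over the 4 arrays the mean deviation on control 1 was -0.70 for the fatty acid list and -0.64 for the cholesterol list. The fatty acid list was highest on control 3 at 0.44 and the cholesterol list on control 4 at 0.38.

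Luminal genes ran the other way, with 11 of 17 highest on control 1 among the 4 arrays (25.3% of detected genes) and mean deviations of 0.48, -0.24, -0.22 and -0.01 on controls 1, 3, 4 and 5. Ehf, an epithelial transcription factor, had the widest spread of the list at -0.37, -1.31, -2.95, -1.05 and -1.26. Basal genes gave 0.36, 0.00, -0.17 and -0.19. Oxidative phosphorylation genes, all 22 above background on every array, were lowest on control 1 for 15 (40% of detected genes), with a mean deviation of -0.36 there and 0.10 to 0.13 on the other 3. Control 1 also had the weak spike-ins given above, and the part of array quality in these shifts was not tested. White fat genes moved little between the same arrays, with list means from -0.07 to 0.09.

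**Figure D5:**
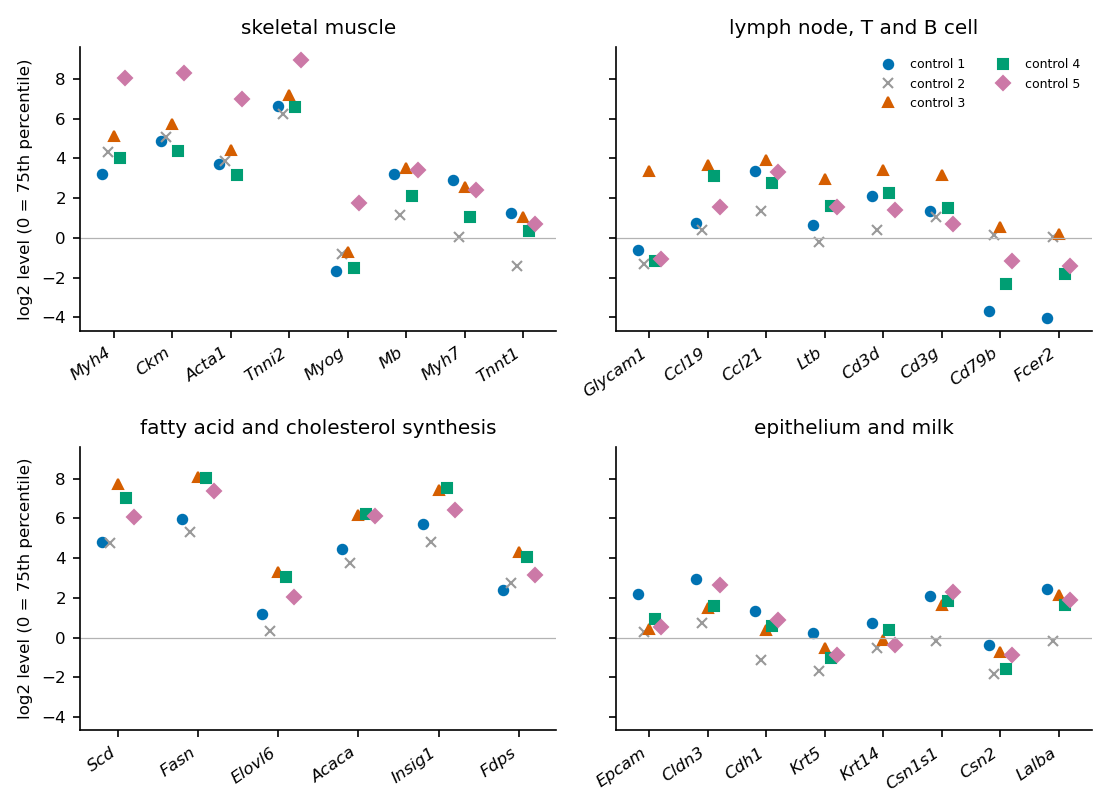
Log2 level (0 is the array's 75th percentile) of 30 genes on each of the 5 control arrays in 4 panels. Fast muscle genes such as Myh4 peak on control 5 (8.03), Glycam1 on control 3 (3.35), lipid synthesis genes are low on controls 1 and 2, and Epcam is highest on control 1 (2.21).

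Spread between arrays was set against the spread between spots of a probe on an array, which does not cover animal, slide or labelling, nor dim genes. Of 263 probes spotted 10 times on each array 135 were well above background on all 5 arrays, and the median SD between spots of an array was 0.12 for the 4 arrays without control 2. The median SD of their means between those 4 arrays was 0.26, and 110 of the 135 varied more between arrays than within them. With control 2 the median SD between arrays was 0.74. A second probe was available for 1777 genes above background on all 5 arrays, and the deviations of both probes correlated across genes at 0.355 to 0.405 within each of the 4 arrays (Pearson, a description across genes that share an array). Both probes peaked on the same array for 683 of the 1777 (38.4%). For the 6 of these genes whose brighter probe had an SD of 1 or more, both probes peaked on the same array in 6.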

How the data were processed

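Total RNA (150 ng per array, per the labels) was labelled with Cy3 and hybridised to 1-colour Agilent whole rat genome arrays, and the scans were read with Agilent Feature Extraction 9.5.3.1, per the submitters' processing notes. The authors deposited a scanner output for each array. Per the file headers, the processed signal is a background-subtracted and detrended intensity in which values near background are replaced by surrogates, and the mean signal and local background are uncorrected intensities. The deposited flags (other values, 0 or 1) mark saturation, outlying pixels and signal well above background. The authors also deposited a table of log2 values, used only as an alternative, with a normalization method not given in the sources used here.

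Levels are the log2 of the processed signal less its 75th percentile over the probe spots of an array. Outlier spots were then left out and spots of a probe averaged. A gene needed values on at least 4 of 5 arrays and was read by its brightest probe. Over 4 arrays detection needed 3. Of 41012 probes 19712 had no match in the RefSeq gene table of GRCr8. The others were matched by transcript accession (10811), symbol without a suffix (6975), symbol (1801), gene ID (1215) or older symbol (498). Saturated values were kept as read. The number of arrays and the background, not a count depth, limit the precision.

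Genes were named by rule: the 20 brightest and the 20 of highest SD, per list the 3 brightest and those of highest and lowest SD, up to 6 variable members of a list with at least 5 among the 200 of highest SD, and all hormone receptors and milk proteins. A hormone receptor and a probe sequence are not reported here. Further list members, the 4-array version of the rule and the printed sequences were chosen after their values were seen. The lists and the choice of arrays were made with earlier results of these data known. The spread calculation was tested on simulated data. Python 3.11.15 (numpy 2.4.6, pandas 2.3.3, scipy 1.17.1, matplotlib 3.10.9) and R 4.3.3 (limma 3.58.1, and data.table, version 1.17.8, for normexp background correction with an offset of 50) were used. The alternatives were other centrings, quantile normalization, normexp, the authors' table, outlier spots kept, mean of probes, stricter or no detection filters, a signal floor, an SD corrected for level, and each array left out.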

Additional observations from a re-analysis of the deposited data

Results flagged for a closer look

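Of 64 genes and 33 lists examined over 5 arrays, 16 genes and 10 lists had their highest or lowest array far from the other 4, beyond the 95% critical value of Dixon's ratio. That value gives about 1 such case in 20 for independent sets of values picked beforehand. Many of these genes were named for a high SD on these arrays or after their values were seen, and all share the same arrays. The rate is therefore no expectation for these counts, which only describe. Of 10 quality measures 6 also passed the critical value, all for control 2. Control 2 had 93.5% of probes above background, a 75th percentile signal of 375, a log2 span of 6.88, 446 outlier spots, 0.954% surrogate values and a dimmest spike-in at 107. Beside these quality values, all detected genes had a mean deviation of -0.61 on control 2 from their 5-array means. On that scale the 10 flagged list means were all lowest on control 2, and of these the glucocorticoid and clock list alone was above -0.61. The 10 were ribosomal protein (-1.63), insulin-like growth factor axis (-1.45), fibroblast matrix (-1.41), macrophage (-1.40), oxidative phosphorylation (-1.37), white fat (-1.31), housekeeping (-1.20), mast cell (-0.98), lymphatic endothelium (-0.97) and the glucocorticoid and clock list (-0.54). Further lists that were not flagged were also lowest on control 2, among them MHC (-1.37) and endothelium (-0.27).

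The genes that were lowest on control 2 by the same measure came from the same lists, from the milk and hormone receptor lists, and from the probe named Krt18. In stroma, ribosome and fat, control 2 read 7.01 for Col3a1, 4.67 for Dcn, 7.16 for Rps16, 6.39 for Adipoq, 4.45 for Lpl and 0.67 for Plin1. Col3a1 was saturated on every array, so its order between arrays follows the 75th percentile signal, which was highest on control 2, and is not read. The ribosomal, matrix and white fat lists also hold saturated genes. In immune and growth factor genes it read 4.82 for C1qb, 0.78 for Cd68, 4.10 for Cma1 and 5.31 for Igf1. In epithelial, milk and receptor genes it read 2.65 for Krt18, -0.15 for Csn1s1, 1.58 for Ghr and -0.48 for Nr3c1. The part of array quality in these values was not tested.

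Myog was far higher on control 5, at 1.75, and Glycam1 on control 3, at 3.35, than on the other arrays. Over the 4 arrays without control 2, 2 of 64 genes and 1 of 31 lists stood out. These were Glycam1 again at 3.35 on control 3, Lpl at 6.97 on control 4, and the oxidative phosphorylation list at -0.36 on control 1.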

How the results depend on the processing

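Values over 5 arrays come first, with leave-one-out ranges over the 5 arrays. Ribosomal genes, counted together with Tpt1, numbered 33 to 38 among the 100 brightest in every setting. The white fat percentile of 90.5 became 84.6 with the mean of probes and 95.8 against all measured genes. For luminal genes 37.0 became 30.7 with normexp, 30.2 in the authors' table and 71.8 against all measured genes (leave-one-out 24.8 to 38.3). Skeletal muscle moved from 74.96 to 88.8 against all measured genes. Erythroid genes stood at 68.9 with the mean of probes and 84.3 against all measured genes (leave-one-out 61.4 to 83.0), and macrophage genes at 81.3 and 92.9 (82.7 to 84.1). Matrix genes stood at 93.6 with normexp, 94.8 in the authors' table, 93.3 with the mean of probes and 97.9 against all measured genes.

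The count of 2015 genes with an SD of 1 or more depended on most settings: 10487 with median centring, 4731 with quantile normalization, 185 with normexp, 498 in the authors' table, 1240 above background on every array, 12781 with no filter, 129 for the SD above that of 500 genes of like level and 1282 for the range of the middle 3 arrays (leave-one-out 360 to 3725). Of skeletal muscle genes 5 were among the 200 of highest SD, against 2 with median centring, 0 with the percentile over probes above background, 1 with quantile normalization, 18 with normexp, 11 in the authors' table, 17 above background on every array, 0 with no filter, 13 with a floor, 3 with the SD corrected for level and 0 for the middle range (leave-one-out 0 to 17, with 0 without control 5 and 17 without control 2). The muscle list on control 5 minus the others, 2.03, was 1.46 in the authors' table. The lymph node list on control 3, 1.36 above the others, was 0.86 with normexp, 0.92 in the authors' table and 1.82 for members above background on every array. The luminal list on control 1, 0.69, was 0.98 with median centring, 0.48 with the percentile over probes above background, 0.43 with normexp and 0.49 in the authors' table. These differences and that of lipid synthesis on control 1 (-0.55, leave-one-out -0.95 to -0.36) kept their sign in every setting run. The ratio of between-array to within-array SD was 5.58 with control 2 and 2.28 without.

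Over the 4 arrays, in settings chosen after seeing the data, 360 genes with an SD of 1 or more became 66 with normexp, 67 in the authors' table, 174 above background on every array, 2132 with no filter and 102 with the SD corrected for level, and 170 to 232 without 1 further array. The 17 muscle genes among the 200 became 3 without control 5 and 3 with no filter, and 3 to 21 over all further single arrays left out. The cause of these changes was not tested. Dim probes enter the count when the filter is dropped. No paired analysis was possible because only 1 group was described.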

Other observations

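Genes of cell division were detected in the untreated gland at a middle level, with 22 of 26 detected and a median percentile of 47.3 over 5 arrays. Cdk1, the kinase that drives entry into mitosis, read 2.29, 1.62, 3.70, 3.68 and 3.08 on controls 1 to 5, and the replication clamp Pcna 2.02, 0.87, 3.1, 2.61 and 2.56. Of 21 such genes detected over the 4 arrays without control 2, 14 were lowest on control 1 (40% of detected genes) and 13 highest on control 4 (24.4% of detected genes). Interferon-induced genes were also highest on control 4 for 8 of 13, among them the ubiquitin-like Isg15 at 0.66, 0.24, 0.54, 2.59 and 1.90 and Oas1a, an antiviral oligoadenylate synthetase, at 1.38, 1.66, 1.14, 2.47 and 2.02. Among the 8 brown fat genes over 4 arrays, Ucp1 and Cox8b had an SD of 1 or more.

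Single genes outside the compartments also stood out. Alb (albumin), the single one detected of 10 liver genes, read 3.20, 0.74, 2.65, 3.26 and 3.49. Zbtb16, a transcription factor induced by glucocorticoids, read -0.89, -0.29, 1.61, -1.95 and -2.53, with control 3 highest, while Fkbp5, a further glucocorticoid-induced gene, was highest on control 1 at 3.63. The probe annotated as Foxe1, a thyroid transcription factor, was picked after its values were seen. It read 9.32, 7.05, 9.27, 8.50 and 9.02 and has no further probe to set beside it, so the level of Foxe1 rests on 1 probe.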
